A study of Caenorhabditis elegans with 2 samples.

Results

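tRNA gene loci were examined in a map of AMA-1, which is the largest subunit of RNA polymerase II in worms, made by chromatin immunoprecipitation followed by sequencing (ChIP-seq) in early embryos of Caenorhabditis elegans. The loci were all 612 genes that the Ensembl annotation of the WBcel235 genome classes as tRNA genes on the nuclear chromosomes, each taken with 200 bp on both sides, a rule that uses the annotation alone. Both samples came from whole embryos of the wild-type strain N2, of pooled sexes and unknown age, and they are biological replicates 1 and 2 of a single group, each with a biosample of its own. All 4 peak lists on the ce11 build were used: 1 for each replicate and 1 for the replicates pooled, with 30000 peaks in each, and an optimal list, which held the 724 highest pooled peaks. A peak was placed by its summit, the base of highest signal, and ranked by the authors' signal value, whose scale is unknown and which served only for ranks within a list. Read depth is unknown because the lists carry no read counts. With 1 group there was no treated condition to compare, so values were set beside genome tiles of 472 bp, the median length of a tRNA gene with its flanks, called in the same way.

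tRNA genes are transcribed by RNA polymerase III, not by the polymerase that AMA-1 belongs to. Their promoter lies inside the gene, in the A box and the B box, which the factor TFIIIC binds before TFIIIB is placed upstream of the start and recruits RNA polymerase III. Transcription stops in a run of T just past the gene. In other organisms RNA polymerase II has also been mapped close to active RNA polymerase III genes. The genome carries many copies of the same tRNA, each decoding 1 amino acid, its isotype, and RefSeq named the isotype of 607 of the 612 genes but no anticodon.

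The sequences of 8 tRNA genes at loci with an optimal AMA-1 summit are shown for their internal promoter. In 5 of the 8 the summit itself lies beyond the bases shown. They are read in the direction of the gene, with 30 bases before it and 20 after it, from the RefSeq genome sequence of WBcel235. Capitals mark first the A box, found as TNGNNNA starting at base 7, 8 or 9 of the gene, and then the B box, found as GTTCNANNC in its last 36 bases, both on the gene's own strand. C04A2.t1 (Leu, chrII:6853174-6853305, plus strand), F56F3.t1 (Arg, chrIII:4470866-4470988, minus strand), sup-5 (Trp, chrIII:8678477-8678598, minus strand) and C02B4.t2 (Tyr, chrX:12665198-12665331, plus strand) are among the loci that ranked 168 or better in the optimal list. M01E5.t1, at rank 74, and C37A2.t1, at rank 122, also did and are not shown. Y65A5A.t1 (Ala, chrIV:16398354-16398475, plus strand) and Y65A5A.t2 (Ala, chrIV:16399154-16399275, plus strand) have identical genes in unlike flanks. C16B8.t2 (Pro, chrX:3970066-3970187, plus strand) and C16B8.t3 (Pro, chrX:3970235-3970356, plus strand) share 1 summit, and the letters searched for the B box were not found in their windows.
C04A2.t1: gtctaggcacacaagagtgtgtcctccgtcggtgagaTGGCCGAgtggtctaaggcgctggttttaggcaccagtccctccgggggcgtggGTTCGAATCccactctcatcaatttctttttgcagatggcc
F56F3.t1: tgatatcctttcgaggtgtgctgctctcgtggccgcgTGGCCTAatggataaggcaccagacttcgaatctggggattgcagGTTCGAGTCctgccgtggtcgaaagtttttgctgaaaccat
sup-5: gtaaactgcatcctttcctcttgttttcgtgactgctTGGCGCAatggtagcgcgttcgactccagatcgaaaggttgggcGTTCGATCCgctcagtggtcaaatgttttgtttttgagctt
C02B4.t2: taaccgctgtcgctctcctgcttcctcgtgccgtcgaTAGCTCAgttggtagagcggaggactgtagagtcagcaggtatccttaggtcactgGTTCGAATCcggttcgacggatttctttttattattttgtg
Y65A5A.t1: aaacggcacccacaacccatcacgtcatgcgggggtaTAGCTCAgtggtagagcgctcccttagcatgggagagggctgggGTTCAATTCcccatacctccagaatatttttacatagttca
Y65A5A.t2: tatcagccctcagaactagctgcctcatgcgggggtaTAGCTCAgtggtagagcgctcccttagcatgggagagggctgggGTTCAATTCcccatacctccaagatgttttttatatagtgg
C16B8.t2: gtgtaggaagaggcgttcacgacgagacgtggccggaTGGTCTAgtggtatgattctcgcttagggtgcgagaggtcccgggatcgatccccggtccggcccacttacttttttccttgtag
C16B8.t3: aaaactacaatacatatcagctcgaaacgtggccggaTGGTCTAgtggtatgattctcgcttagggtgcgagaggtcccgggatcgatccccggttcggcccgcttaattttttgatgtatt

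Nearly all tRNA genes carried these letters, whether or not they had an optimal summit. The B box letters were in 587 of 612 genes (95.9%) and in 13 of the 15 with an optimal summit, against 0.539% of tiles searched on the plus strand over their central 72 bp. The A box letters were in 565 genes (92.3%) and in all 15 of those, against 5.57% of tiles. A TTTT run in the 20 bases past the gene was found for 602 genes (98.4%) and for all 15, against 25.8% of tiles. The A box and B box searches covered different bases of the gene and could not overlap. The genes were 64 to 122 bp long, with a median of 72 bp, and 469 of them (76.6%) had at least 1 identical copy elsewhere, in families of up to 29 genes. Only 200 distinct sequences were present, and 473 genes held no stretch of 36 bases that occurs once in the genome. The flanks were far more distinct: over the whole window a median of 88.6% of 36-base stretches occurred once.

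AMA-1 summits lay at 15 of the 612 tRNA loci in the optimal list (2.45%, exact binomial 95% interval 1.38 to 4.01, counting error only), at 14 distinct summits. The share over all tiles was 0.332%, that is 706 of 212439, so the tRNA share was 7.38 times that of tiles. Replicate 1, cut to its own upper 724 peaks, had a summit at 13 loci (2.12%), against 0.331% of tiles. Replicate 2, cut the same way, had 15 (2.45%), against 0.334% of tiles. The remaining 597 loci had no optimal summit, which says that they were not among the highest peaks and not that AMA-1 was absent there.

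The tRNA loci were concentrated near the top of the lists. The first to appear in the pooled list was M01E5.t1 at rank 74. Within the upper 250 pooled peaks there were 11 loci, 16.0 times the share of tiles, and within the upper 500 there were 14, 10 times the share of tiles. At 250 peaks the replicates differed, with 4 loci in replicate 1, 5.74 times the tile share, and 10 in replicate 2, 14.3 times. At 500 peaks they had 11 and 13 loci, 7.86 and 9.23 times. In the upper 2000 pooled peaks the count had reached 19 loci (3.10%), against 0.921% of tiles. Among all 30000 pooled peaks, 73 loci (11.9%, interval 9.47 to 14.8) had a summit, against 12.7% of tiles. That is 0.939 times the tile share, so over the whole relaxed list tRNA loci held no more summits than the genome at large. The summits at tRNA loci ranked higher, however: the median pooled rank was 6064 over the tRNA loci with a summit and 14338 over the tiles with one. The whole list gave 1.22 times the tile share in replicate 1 and 1.03 times in replicate 2.

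**Figure D1:**
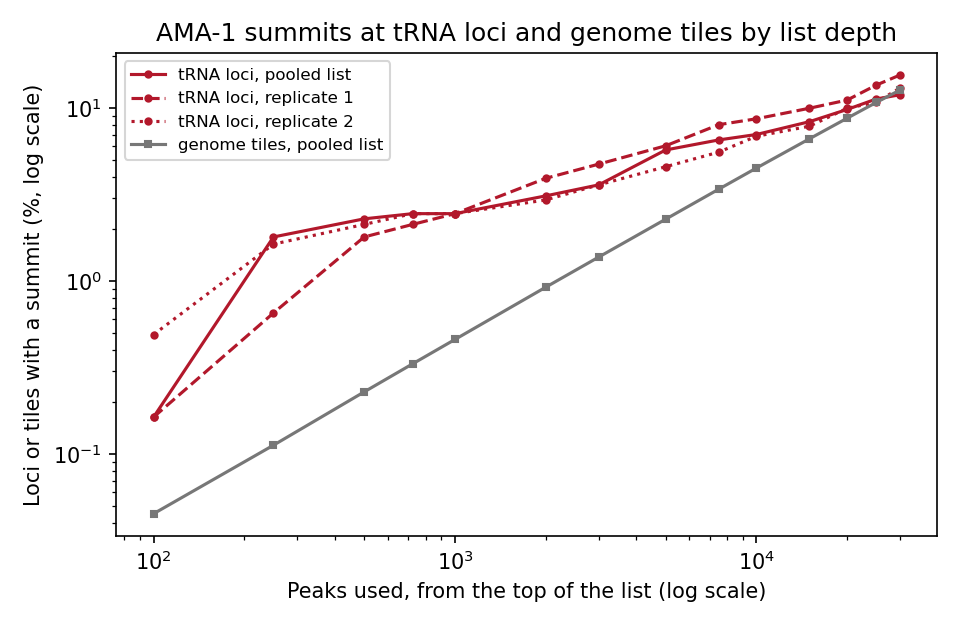
Percentage of tRNA loci (red) and of genome tiles (grey) holding a summit, as more peaks are used from the top of the pooled list and of each replicate list, both axes logarithmic. The red and grey pooled curves are farthest apart at the upper 250 peaks and meet at 30000, where 11.9% of loci and 12.7% of tiles hold a summit.

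The optimal summits lay in or close beside the tRNA genes. Of the 14 optimal summits, 7 lay upstream of the nearest tRNA gene in its own direction, at 19 to 51 bp, 3 lay inside the gene and 4 lay downstream, at 9 to 66 bp. None of the 14 was farther than 66 bp from its nearest tRNA gene, although the window reached 200 bp. The gene itself makes up 15.8% of the window's bases and each flank 42.1%, so the 3 summits inside (21.4%) and the 7 upstream (50%) were not far from the shares of the bases. The bin from 100 to 50 bp before the middle of the gene held 7 summits, against a genome mean of 0.221 per bin. The same bin held 21 summits of the whole pooled list, against a mean of 9.16, and no other 50 bp bin within 500 bp held as many. Over that whole list 36 of 77 summits were upstream, 18 inside (23.4%) and 23 downstream. Replicate 1's upper 724 peaks gave 6 upstream of 12, and those of replicate 2 gave 7 of 14. The share of 36-base stretches that occur once was 95.4% in the bin that held most summits and 57.1% and 53.1% in the bins on either side of the middle of the gene, and its part in the placing of the summits was not tested. Summits of a single locus differed between replicates by a median of 29 bp and at most 151 bp, so the class of 1 locus is less certain than the counts. At M57.t1 the pooled summit lay inside the gene, while the replicate summits lay 129 and 83 bp before its middle. The nearest optimal summits beyond the window were those 312 bp from Y7A9D.t3 (IV, rank 225), 349 bp from C16D9.t4 (V, rank 377) and 362 bp from C25F6.t2 (X, rank 471), the last being the summit already counted for C25F6.t1.

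**Figure D2:**
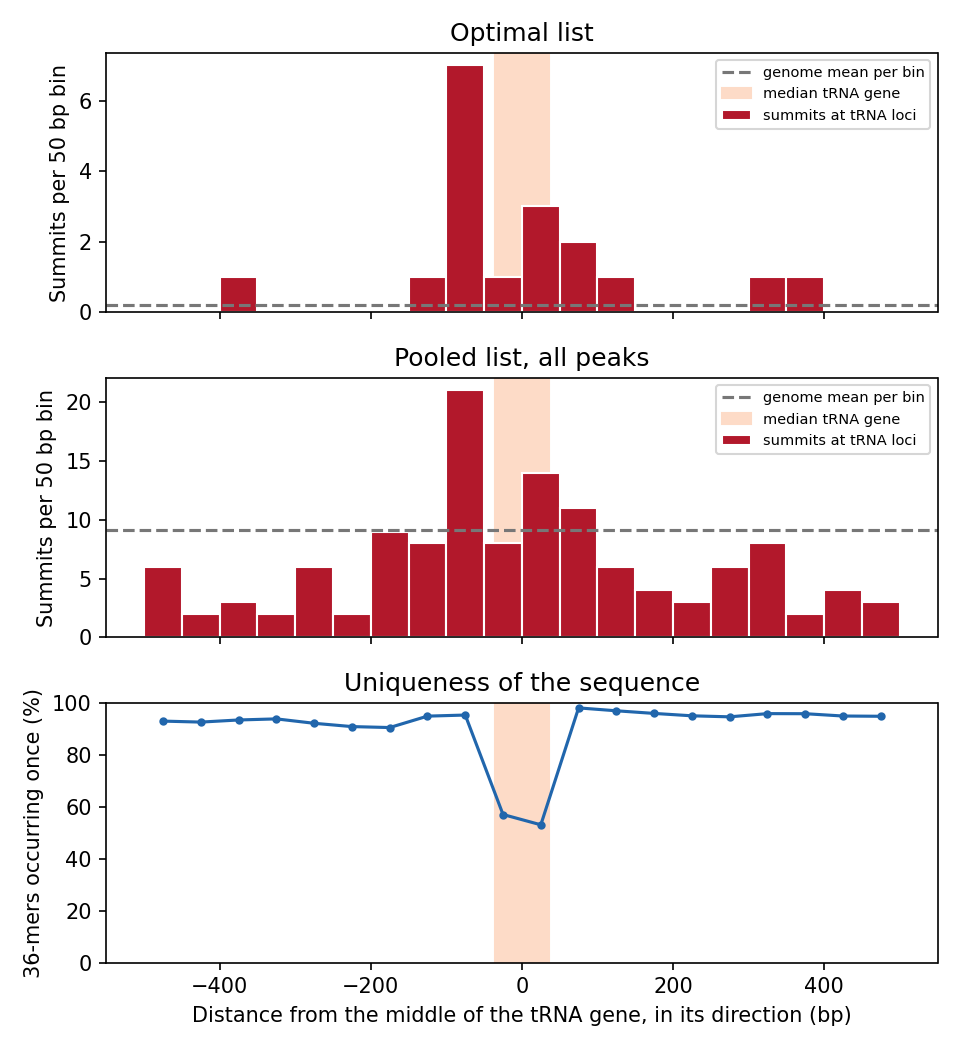
Number of summits per 50 bp bin around the middle of the tRNA gene, in its direction, for the optimal list (top) and the whole pooled list (middle), with the genome mean per bin dashed, and the percentage of 36-base stretches that occur once (bottom). The tallest bar in both upper panels is the bin from 100 to 50 bp before the middle, with 7 and 21 summits, and uniqueness dips over the gene itself.

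All 15 loci lay either within 500 bp of a protein-coding 3' end or in an intron of a protein-coding gene. Many tRNA genes are so placed: of all 612, 290 lay inside a protein-coding gene and 120 within 500 bp of a 3' end. The share of all tRNA loci in either class was not counted, so the 15 of 15 has no share to be read against. Of the 15 loci with an optimal summit, 8 were near a 3' end and the other 7 were intronic and farther than 500 bp from any coding end. C04A2.t1 and Y65A5A.t2 were both intronic and near a 3' end. Of the 120 tRNA loci within 500 bp of a protein-coding 3' end, 8 had an optimal summit (6.67%, interval 2.92 to 12.7), against 1.01% of tiles so placed. Of the 413 farther than 500 bp from any end, 7 had one (1.69%), against 0.163% of tiles. None of the 104 within 500 bp of a 5' end had one, which allows a share of up to 3.48%, against 0.654% of tiles. Among the 143 loci more than 1000 bp from any protein-coding gene there was also none, which allows up to 2.55%, against 0.0473% of tiles.

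The highest of the loci near 3' ends was M01E5.t1, a lysine tRNA gene on I (13297673-13297745, minus strand). It ranked 74 in the optimal list with a signal of 107.4, 39 in replicate 1 and 142 in replicate 2. Its pooled summit lay 31 bp upstream of the tRNA gene and 101 bp before sls-2.9, a gene for a spliced leader RNA, which is itself an RNA polymerase II product. The replicate 2 summit, at 13297888, fell inside sls-2.9, so at this locus the 2 genes could not be told apart. From the pooled summit it was 218 bp back to the 3' end of top-1, the topoisomerase I gene, and 428 bp to that of sepa-1, which encodes an autophagy receptor of P granule proteins. C04A2.t1 (Leu) ranked 101, with 303 in replicate 1 and 89 in replicate 2, and its summit lay 34 bp downstream of the tRNA gene, in an exon of C04A2.15, the tRNA gene being in an intron of it, and 142 bp past the 3' end of dnj-5, a DnaJ chaperone gene. F56F3.t1 (Arg) ranked 107, with 119 and 238 in replicates 1 and 2, and lay between the converging ends of mstr-2, 200 bp away, and ifet-1, a translational repressor gene, 403 bp away. These 3 were high in both replicates.

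Y65A5A.t1 and Y65A5A.t2, neighbouring alanine tRNA genes of identical sequence on IV, each had a summit of its own. Y65A5A.t1 ranked 178, with 406 in replicate 1 and 50 in replicate 2, and its summit lay 66 bp downstream. Y65A5A.t2 ranked 327, with 2577 and 263 in replicates 1 and 2, and lay 9 bp downstream of the gene, in an intron of Y65A5A.1. It was the 1 locus of the 15 outside the upper 2000 of a replicate. The adjacent proline genes C16B8.t2 and C16B8.t3 on X shared a summit that ranked 196, with 1247 and 117 in the replicates, inside C16B8.t2 and 108 bp upstream of C16B8.t3. That summit also lay within C16B8.8, an ncRNA gene on the opposite strand. C25F6.t1, a methionine tRNA gene on X (5485112-5485184, plus strand), ranked 471, with 1054 and 661, and its summit lay 19 bp upstream of it and 152 bp past the 3' end of dlg-1, a scaffold gene of epithelial junctions. All 5 of these loci stood higher in replicate 2.

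The 7 intronic loci away from gene ends began with C37A2.t1, a cysteine tRNA gene on I (6781803-6781874, plus strand) in an intron of cye-1, the cyclin E gene, on the same strand. It ranked 122, with 718 in replicate 1 and 97 in replicate 2, and its summit, 51 bp upstream of the tRNA gene, was the only optimal summit in cye-1. sup-5, the tryptophan tRNA gene in which amber suppressor alleles are known, ranked 142, with 126 and 432 in replicates 1 and 2, with its summit 34 bp upstream of the gene. It lies in an intron of fli-1, a gelsolin-family actin regulator, on the same strand, and it was 1 of the 4 loci ranked better in replicate 1. C02B4.t2 (Tyr), in nhr-17, a nuclear hormone receptor gene on the opposite strand, was the highest X locus at rank 168, with 189 and 234 in the replicates. Its summit lay 23 bp upstream in the pooled list, while those of the replicates were 112 bp apart. F33G12.t1 (Ile), the single gene of its sequence, ranked 179, with 356 and 239, and lay in F33G12.3 on the opposite strand. The other 3 were arginine genes: Y92H12A.t1 in src-1, a Src family kinase gene, at rank 242, F29C4.t1 in col-99, a collagen gene, at rank 340, and M57.t1 in unc-33, a gene of axon guidance, at rank 651. The pooled summits of F29C4.t1 and M57.t1 also lay within ncRNA genes on the opposite strand of the tRNA gene, F29C4.12 and Y37E11C.3.

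In the host genes that held an optimal summit, it lay mostly at the tRNA locus. The 290 tRNA genes inside protein-coding genes lay in 228 host genes, of which 10 had an optimal summit anywhere and 9 had it at the tRNA locus. That is 4.39% of hosts, against 2.21% of all 19973 protein-coding genes (441), and hosts were longer, with a median of 5174 bp against 2027 bp. In 8 of these 9 the summit at the tRNA locus was the host's only one, and unc-33 had 3. None of the 9 tRNA genes overlapped an annotated exon of its host, and the hosts were 988 to 12607 bp long. A host on the same strand was present for 166 tRNA genes, 5 with an optimal summit (3.01%), and a host on the opposite strand for 123, 4 with one (3.25%). A single further gene had hosts on both strands and no summit.

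The share with an optimal summit was 9 of 290 inside protein-coding genes (3.10%, interval 1.43 to 5.81) and 6 of 322 outside them (1.86%, interval 0.687 to 4.01). Tiles had 0.386% inside and 0.247% outside. The ratio of inside to outside was 1.67 for tRNA loci and 1.56 for tiles, and the 2 intervals of the tRNA loci overlapped widely. Replicate 1 alone had 6 inside and 7 outside, and replicate 2 alone had 9 inside and 6 outside, so the direction rested on replicate 2. With only 15 loci called, a difference between the sides was not detectable.

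X carried 276 of the tRNA genes, 45.1% of them on 17.7% of the genome length, and 4 of the 15 loci with an optimal summit. Optimal summits lay at 4 of 276 loci on X (1.45%, interval 0.396 to 3.67) and at 11 of 336 on the autosomes (3.27%, interval 1.65 to 5.78). Tiles had 0.173% on X and 0.366% on the autosomes. The ratio of X to autosomes was 0.443 for tRNA loci and 0.472 for tiles, so the lower share on X was near that of X in general. The 2 intervals of the tRNA loci overlapped, and with only 15 loci called a difference between X and autosomes was not detectable. In replicate 1 alone the shares were 1.81% on X and 2.38% on the autosomes, a ratio of 0.761 against 0.556 for tiles. Replicate 2 alone gave 0.443 against 0.477. Leaving out replicate 2 thus moved the X minus autosomal difference to -0.569 percentage points, against -1.82 in the optimal list. In the whole pooled list 18 X loci (6.52%) and 55 autosomal loci (16.4%) had a summit, a ratio of 0.398, against 0.516 for tiles. This gap to the tiles rested on replicate 2, where the ratio was 0.329 against 0.542, since replicate 1 gave 0.618 against 0.571. Of the X tRNA genes, 96 of 276 lay inside protein-coding genes, against 194 of 336 on the autosomes. In the whole pooled list, loci inside protein-coding genes had a summit at 11 of 96 on X (11.5%) and at 37 of 194 on the autosomes (19.1%), against 10.4% and 18.03% of tiles. Outside them the counts were 7 of 180 on X (3.89%) and 18 of 142 on the autosomes (12.7%), against 3.31% and 6.90% of tiles. Apart from the autosomal loci outside genes, these shares were near those of the tiles. Among the autosomes, V had none of 78 in the optimal list, which allows up to 4.62%, and IV had 4 of 71 (5.63%). Chromosomes I, II and III had 3 of 66, 2 of 57 and 2 of 64.

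**Figure D3:**
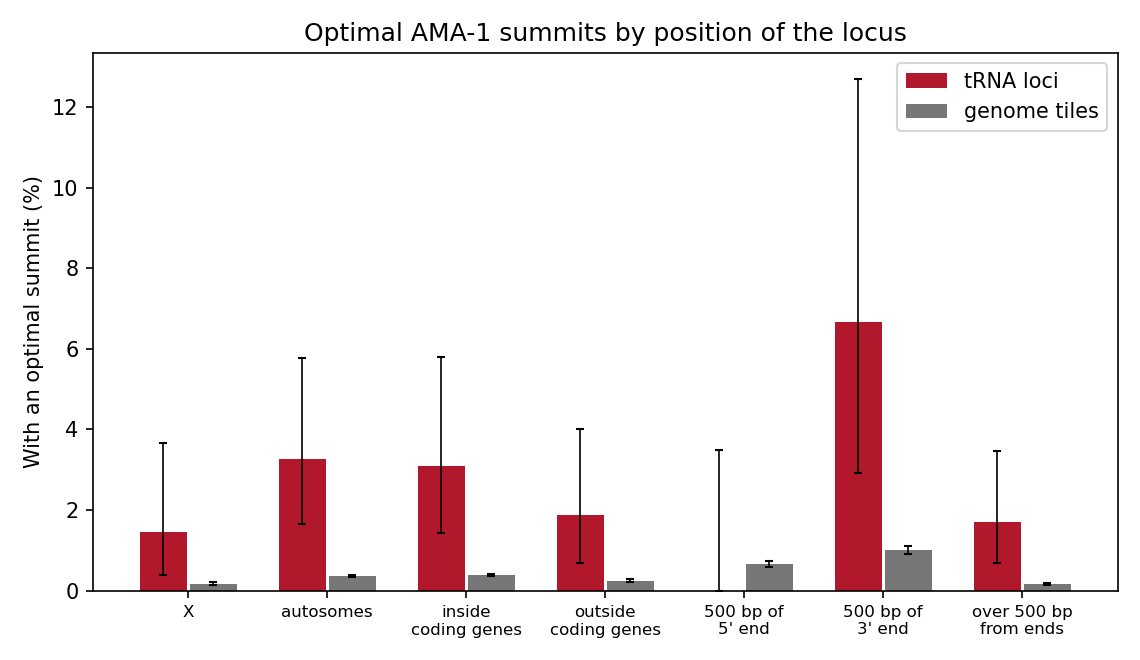
Percentage of tRNA loci (red) and genome tiles (grey) with an optimal summit by position, with exact binomial 95% intervals as error bars, which cover counting error only. The red bar is above the grey one in each group but that within 500 bp of a protein-coding 5' end, where none of 104 loci had a summit, and the red intervals for X and autosomes overlap.

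By isotype, 10 of 21 had a locus with an optimal summit. Arginine had 4 of 44 genes, all of them on autosomes although 27 of the 44 lie on X. Alanine had 2 of 34 and proline 2 of 42, the proline pair at 1 shared summit. Lysine (46 genes), leucine (39), isoleucine (29), methionine (20), tyrosine (19), cysteine (13) and tryptophan (12) had 1 each. The largest isotype, glycine, had none of 55, and glutamate (41), serine (39), threonine (34) and valine (31) had none either. These counts are too small to rank isotypes.

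Families of identical genes that held a locus with an optimal summit were counted for copies with a pooled summit. Both copies of the arginine gene F29C4.t1 had one in the pooled list, as did 3 of 6 copies of M57.t1, 2 of 6 of C02B4.t2 and 2 of 9 of C25F6.t1. The 15 identical alanine genes had 2 with a pooled summit, the neighbours Y65A5A.t1 and Y65A5A.t2, both in the optimal list. Of 25 copies of the lysine gene M01E5.t1, 2 had a pooled summit, and of the 12 cysteine and 10 tryptophan genes C37A2.t1 and sup-5 were the single ones. The families of Y92H12A.t1 (5 copies), F56F3.t1 (4) and C04A2.t1 (3) also had 1 each. These families were picked because a member had an optimal summit, and every optimal peak is also a pooled peak. Each therefore has at least 1 pooled summit by selection, and the counts cannot be set against the 11.9% of all tRNA loci. They are also small, and they cannot say whether copies share summits. In all, 12 of the 15 loci with an optimal summit had an identical copy. Reads from inside such a gene fit every copy, and the sources used here do not give how they were placed.

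The upper 724 peaks of both replicates had 9 tRNA loci in common (1.47%), with 4 in replicate 1 only and 6 in replicate 2 only. Of the tiles, 704 had a summit in replicate 1, 710 in replicate 2 and 222 in both (0.105%). A summit of both replicates' upper 2000 peaks lay at 14 loci (2.29%), against 0.289% of tiles, and these 14 were all in the optimal list. The 15 optimal loci ranked 39 to 2577 in replicate 1, with a median of 656, and 50 to 677 in replicate 2, with a median of 238, and 11 of the 15 ranked better in replicate 2. Over the whole lists, 53 loci had a summit in both replicates, 42 in replicate 1 only, 27 in replicate 2 only and 490 in neither. The same split of tiles is not given here, nor is the share of all optimal peaks that ranked better in replicate 2. Spearman's rho of the ranks over those 53 loci was 0.63, a description in which loci share libraries and some share sequence.

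**Figure D4:**
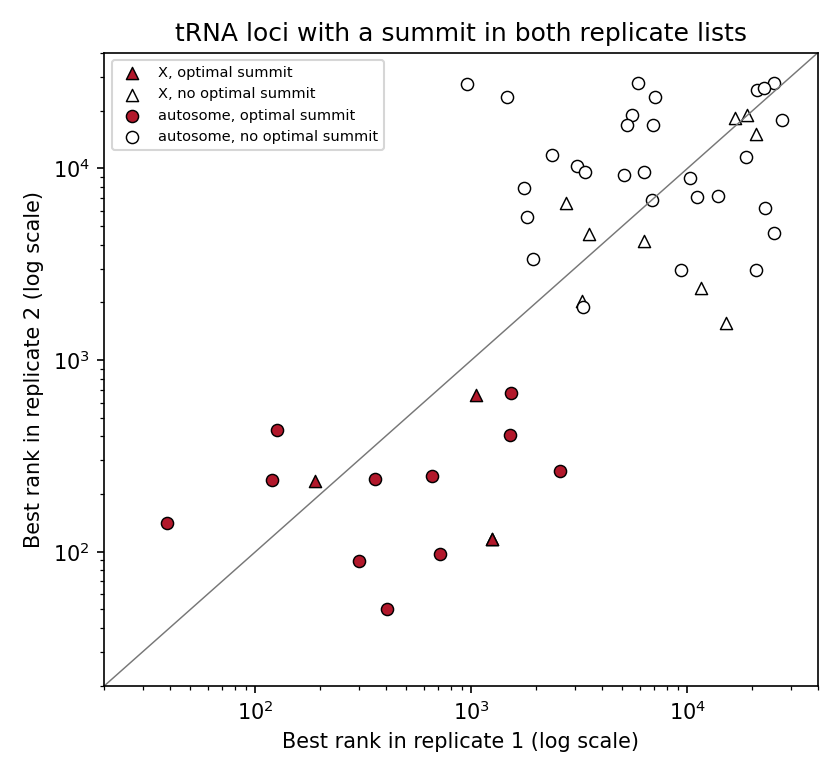
Best rank in replicate 1 against best rank in replicate 2 for the 53 tRNA loci with a summit in both lists, on logarithmic axes, with loci on X as triangles, autosomal loci as circles, and loci with an optimal summit filled. The filled points reach down to rank 2577 in replicate 1 and 677 in replicate 2, most of them below the line of equal rank.

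Another 4 loci, at 3 summits, stood in the upper 724 of replicate 1 and were missing from both the replicate 2 list and the pooled list. All 4 were on X. They were named after their values were seen. M02F4.t1 (Gly) and M02F4.t2 (Glu) shared the replicate 1 summit at 3036155, rank 258, which lay 9 bp upstream of M02F4.t1 and 272 bp past the 3' end of cnnm-3. C33G3.t2 (Lys) had rank 262, with a summit 34 bp upstream of it and 122 bp past the 3' end of dyc-1. C04A11.t1 (Leu), whose sequence is unique, had rank 438, with a summit inside the gene and 190 bp past the 3' end of C04A11.5. Over the whole genome, 13 of replicate 1's upper 724 peaks overlapped no pooled peak by 1 bp or more, and 6 of the 13 were on X. The peaks at these 3 summits were among the 13. Set against the replicate 2 list, 36 of replicate 1's upper 724 peaks overlapped no peak, 7 of them on X. In the other direction, 31 of replicate 2's upper 724 peaks overlapped no replicate 1 peak, 5 of them on X. Of replicate 2's upper 724 peaks, 15 overlapped no pooled peak, 4 of them on X, and none of the 15 lay at a tRNA locus. The replicate 1 counts of 5 X loci and 8 autosomal loci thus share only C02B4.t2 on X with those of replicate 2, which were 4 and 11.

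Below the optimal list, 5 more loci ranked best by the worse of their replicate ranks. ZK783.t1 (Glu), inside upp-1, the uridine phosphorylase gene, had pooled rank 1106, with 1925 in replicate 1 and 3374 in replicate 2. C06G1.t4 (Asp) on X had 1250, with 3264 and 2029 in the replicates. Y49E10.t1 (Gln) in tat-1, a phospholipid translocase gene, had 1269, with 1813 and 5574. Y43F4A.t2 (Asn) had 1318, with 3275 and 1895. H08J11.t3 (Gln) on X, in ajm-1, an apical junction gene, had 3841, with 3489 and 4558. The summits of C06G1.t4, Y49E10.t1, Y43F4A.t2 and H08J11.t3 lay upstream of the tRNA gene, at 17 to 51 bp, close to the 19 to 51 bp of the upstream summits in the optimal list, and that of ZK783.t1 lay inside it.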

How the data were processed

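AMA-1 ChIP-seq peak lists of 2 biological replicates of N2 early embryos were used on the ce11 build. Per the labels and the text notes deposited with the samples, the authors called peaks and background for each replicate and for both pooled, with 1 control, and used these lists in the IDR procedure (irreproducible discovery rate), and derived the optimal list from it. The deposited lists give a signal value per peak, whose scale is not stated. The summit is the deposited offset in bp from the peak start, and its unit is classed as other. Not given in the sources used here are the aligner, the peak caller, the read length and the threshold of the IDR procedure. The control was not analysed here, and lists on the ce10 build were not used because the annotation is on ce11.

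Genes came from Ensembl release 115 (WBcel235), and names, isotypes and sequence from RefSeq. A locus or tile was called when a summit lay within it. Tiles of 472 bp covered the nuclear chromosomes end to end and were classed by their central 72 bp. Inside meant that a whole gene lay between the ends of a protein-coding gene. No test was run: loci are not replicates, so shares carry exact binomial 95% intervals over loci that cover counting error only. Uniqueness is the percentage of 36-base stretches found once in the genome on either strand. All tRNA genes with an optimal summit were named, then those with the best worse-of-both-replicates rank until 20 in all. The loci, lists and rules were chosen with earlier results of these data known. The window count was tested on simulated summits. Analyses used Python 3.11.15, numpy 2.4.6, pandas 2.3.3 and scipy 1.17.1. Other windows, list depths, summit rules, uniqueness filters and each replicate alone were tried.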

Additional observations from a re-analysis of the deposited data

How the results depend on the processing

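The 15 loci became 14 with a window of 100 bp, 18 with 500 bp, 13 in the upper 362 optimal peaks, 19 in the upper 2000 pooled peaks, 16 by peak overlap and 14 with overlapping windows merged. All 15 had at least 50% unique 36-base stretches. The count moved to 3 with no flank and to 35 in the upper 5000 pooled peaks. It moved to 4 of 189 loci with no other noncoding gene within 500 bp and to 7 of 413 loci over 500 bp from any protein-coding end. These last alternatives look at fewer bases, more peaks or fewer loci. The 35 loci were 5.72%, against 2.28% of tiles, and the 7 were 1.69%, against 0.163% of tiles. For the 189 loci the tRNA minus tile share was 1.82 percentage points. The tRNA minus tile share, 2.12 percentage points, was 0.438 with no flank. There the tiles shrank as well, and 3 of 612 loci had a summit against 724 of 1392672 tiles. The 2 differences are therefore not on the same scale. Over 1000 bp from any protein-coding gene the difference turned to -0.0473, where no locus of 143 had a summit, against 19 of 40137 tiles. So few loci cannot show a share as low as that of these tiles. With 1 replicate left out, the count was 13 to 15, the tRNA minus tile share 1.79 to 2.12, the X minus autosomal share -1.82 to -0.569 (-1.82 in the optimal list) and the upstream summits 6 to 7. The inside minus outside share, 1.24, ran from -0.105 without replicate 2 to 1.24 without replicate 1, and reached 4.86 with the upper 5000 pooled peaks. At that depth 8.28% of loci inside and 3.42% outside had a summit, against 2.90% and 1.28% of tiles, and the cause was not tested. The 14 loci in the upper 2000 of both replicates were 9 in the upper 724 and 1 with no flank. No paired analysis was possible because there is 1 group of 2 samples. Unknown read depth, 15 called loci and genes whose reads fit several copies limit what can be seen.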

Other observations

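The same 200 bp rule was applied to the other noncoding classes of the annotation. Optimal AMA-1 summits lay at 2.45% of tRNA genes, against 20 of 129 snRNA genes (15.5%), 27 of 261 miRNA genes (10.3%) and 30 of 346 snoRNA genes (8.67%), all of which have members made by RNA polymerase II, and 80 of 7764 ncRNA genes (1.03%). The share of lincRNA genes was also 1.03% (2 of 194, interval 0.125 to 3.67). Lower shares were found for pseudogenes (5 of 2128, 0.235%) and piRNA genes (5 of 15363, 0.0325%). None of 100 antisense RNA genes and none of 20 rRNA genes had one, which allows up to 3.62% and 16.8%. The classes differ in gene length, and loci of several classes can share a summit. An ncRNA gene on the opposite strand overlapped 352 tRNA genes, of which 9 had an optimal summit (2.56%), and 6 of the 260 tRNA genes without such a partner had one (2.31%). The peaks carry no strand, so a summit at an overlapped pair cannot be assigned to either gene.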
